A study of Mus musculus with 1666 samples.

Results

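The cells described here are the epithelial and the fibroblast-like cells of developing mouse whisker follicles at embryonic day 13 (labelled E13.0), compared within each library plate. A cell was placed in the epithelial class when Krt5, a basal keratin, and Trp63, the transcription factor that maintains stratified epithelium, were each at 10 TPM or more and Col3a1, a fibrillar collagen of mesenchyme, was under 50 TPM. It was placed in the fibroblast-like class when Col3a1 was at 50 TPM or more, Pdgfra, a growth factor receptor of dermal mesenchyme, was at 10 TPM or more and Trp63 was under 10 TPM. TPM is transcript abundance scaled for gene length and for the library total. The rule placed 263 of the 267 E13.0 cells in a class, out of 1614 cells with values in all 7 stages. There were 53 epithelial and 210 fibroblast-like cells, and 4 cells were in neither class.

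By the labels, the E13.0 cells came from the same kind of animal and sort. The mice carried a transgene for nuclear Kikume Green-Red, a fluorescent protein that light switches from green to red, and whole single whisker follicles were switched under the microscope. Red cells that carried ITGA6, an integrin on basal epidermal cells, and lacked CD31, an endothelial surface protein, were then sorted singly. Their total RNA was sequenced along its full length by RamDA-seq, which also captures RNA without a poly(A) tail. Both classes come from this 1 transgenic line and the same plates, no treatment is named, and the labels give neither the strain nor the promoter of the transgene. They also name no embryo or litter, so E13.0 is 1 sample, its 3 plates are not biological replicates, and nothing below carries a p-value. A value given as mean ± SD covers the spread over 3 plates, which may be technical.

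The classes were chosen by measured values of the same cells, so every difference between them is a description of what goes with Krt5, Trp63, Col3a1 and Pdgfra, and none is independent support for the class names. A gene was called higher in a class when its mean TPM there, after adding 1 TPM to each class mean, was at least 2-fold that of the other class (a log2 fold of 1 or more) on each of the 3 plates. Log2 folds are on this log2(TPM + 1) scale, which understates the change of low genes. They are positive where the epithelial cells were higher. Tested genes had a mean of the class means of at least 1 TPM.

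Skin at this age is built of an epithelium and a mesenchyme that exchange signals. Epithelial cells are joined to each other by cadherin junctions and desmosomes and stand on a basement membrane, while mesenchymal cells lie apart in a collagen matrix that they secrete. In a whisker follicle the epithelium forms a placode that grows down as a peg, and fibroblasts below it gather into a dermal condensate, the precursor of the dermal papilla. Wnt, Fgf, hedgehog, ectodysplasin, BMP and Pdgf signals pass between the layers.

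The sort was designed for basal epidermal cells, and the E13.0 plates go against that design. Fibroblast-like cells made up 78.7% of E13.0 cells (exact 95% interval 73.2 to 83.4%, counting error only) and epithelial cells 19.9% (15.2 to 25.1%). Plates 1, 2 and 3 held 23, 16 and 14 epithelial cells and 63, 73 and 74 fibroblast-like cells. Fibroblast-like cells thus outnumbered epithelial cells on each plate, and plate 1 had the highest epithelial share, 26.7% against 17.6% and 15.6%. At E12.0 the fibroblast-like class held 0 of 276 cells, a count that allows up to 1.09%, and at E13.5 there were 2 of 181. Its share was higher in the other stages: 36% of E15.0 cells, 17.1% of E17.0 cells, 14.9% of E11.5 cells and 10.7% of E14.0 cells. Plate 1 of E15.0 had 81.1%, within the range of the E13.0 plates (73.3 to 82.2%). Itga6 RNA, which encodes the sorted integrin, averaged 45.5, 58.3 and 32.5 TPM in epithelial cells of plates 1, 2 and 3 and 11.2, 13.1 and 6.41 TPM in fibroblast-like cells, and 65 of the 210 fibroblast-like cells had 10 TPM or more. Whether this level of Itga6 accounts for their passing the gate was not tested.

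Col3a1 left a wide gap between the classes, and Trp63 reached its threshold more closely. The lowest epithelial cell had 16.1 TPM of Krt5, the lowest Trp63 was 26.5 TPM, and the highest Col3a1 was 10.4 TPM. Among fibroblast-like cells the lowest Col3a1 was 177 TPM, the lowest Pdgfra 17.3 TPM and the highest Trp63 9.70 TPM. The 4 cells just outside had Col3a1 from 799 to 1426 TPM but Pdgfra from 0.391 to 8.71 TPM, with Krt5 under 1 TPM. No cell had both Krt5 at 10 TPM and Col3a1 at 50 TPM. Library measures differed little between classes, but in the same direction on each plate. The plate medians of genes at 1 TPM or more were 17417 to 17727.5 in epithelial and 17779 to 18287 in fibroblast-like cells, mitochondrial RNA took 3.48 to 4.13% and 3.17 to 3.43% of TPM, and the ribosomal RNA-like symbol Mir6236 took 19.1 to 20.9% and 16.4 to 18.8%. Read depth is unknown, since TPM keeps none.

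**Figure D1:**
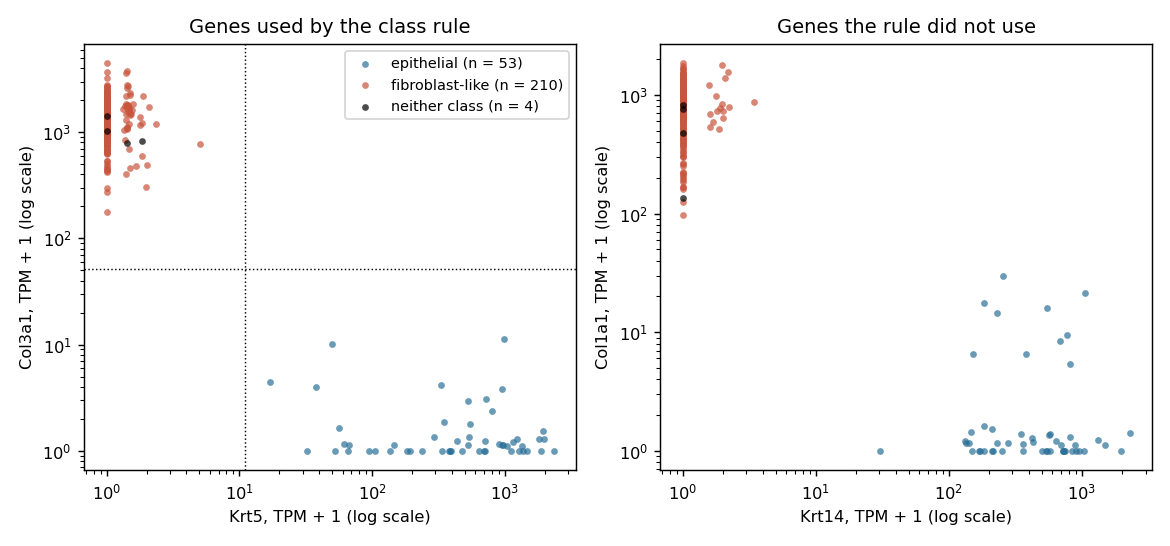
Each point is 1 of the 267 E13.0 cells, with TPM + 1 on log axes. The left panel shows Krt5 against Col3a1, which the class rule used, with dotted lines at its thresholds, and the right panel shows Krt14 against Col1a1, which it did not use. The 53 epithelial and 210 fibroblast-like cells form separate groups in both panels, and the 4 unclassed cells lie with the fibroblast-like cells.

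Markers that the rule did not use followed the classes. Krt14, the keratin partner of Krt5, had a lowest, median and highest value of 29.4, 499 and 2297 TPM in epithelial cells and 0, 0 and 2.4 TPM in fibroblast-like cells, and the classes did not overlap. Col1a1, the main fibrillar collagen of dermis, had 96.7, 841 and 1844 TPM in fibroblast-like cells and 0, 0.16 and 28.6 TPM in epithelial cells, again without overlap. The 4 unclassed cells had Col1a1 from 133 to 824 TPM and no Krt14. Cdh1, the E-cadherin of epithelial junctions, and Epcam, an epithelial adhesion protein, were also kept apart: Cdh1 was at least 31.4 TPM in every epithelial cell and at most 11.4 TPM in any fibroblast-like cell, and the same limits for Epcam were 17.2 and 11.7 TPM. Of the 16 markers listed for the classes beside the rule genes, Dcn, a small dermal proteoglycan, was not called, at 2.21 against 5.55 TPM (epithelial against fibroblast-like, the order used throughout). Krt14, Cdh1 and Epcam were thus at or near 0 in most cells of the larger class, while Itga6, the gene of the sorted integrin, averaged 45.4 against 10.2 TPM. The labels name 1 sort for all 3 plates, and whether its gate or the dissected tissue set the share of fibroblast-like cells was not tested.

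Of 24224 tested genes, 1072 were called higher in epithelial cells, which is 4.43% of those tested, and 1555 were called higher in fibroblast-like cells, or 6.42%. The median log2 fold of all tested genes was -0.17, and a list is read against it. Scaling by the median ratio of the class means moves this median to -0.02. Since the classes were defined by genes of the same programs, a list's count describes the contrast and tests nothing.

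**Figure D2:**
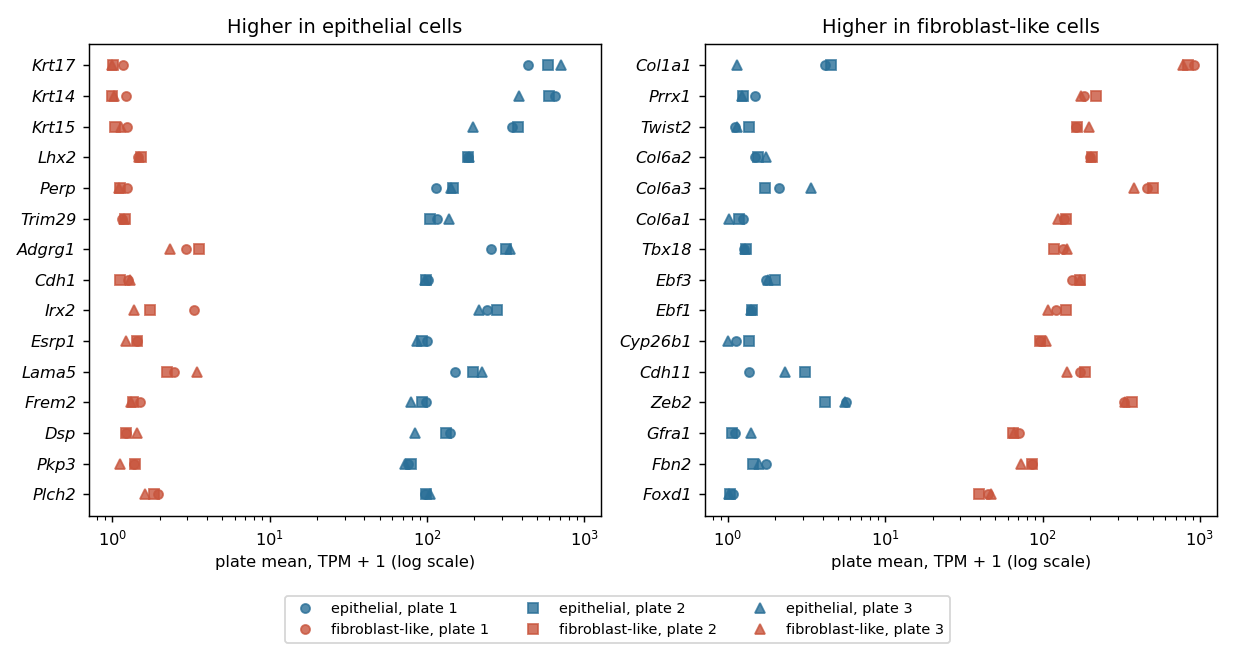
Plate means (TPM + 1, log axis) of the 15 genes named for each class, with blue for epithelial and red for fibroblast-like cells and a symbol for each of the 3 plates. For all 30 genes the plates of the higher class lie far above those of the other class, and no gene's plates overlap between classes. The genes were chosen by their smallest plate fold, which fixes this separation.

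The 15 genes whose smallest plate fold was largest were keratins, junction proteins and transcription factors on the epithelial side. Krt17, a keratin of placodes and activated epithelium, averaged 440.1, 585 and 708 TPM on plates 1, 2 and 3 in epithelial cells and 0.163, 0.0127 and 0 TPM in fibroblast-like cells. Its level was uneven among epithelial cells, running from 0 to 3320 TPM with a median of 229 TPM. Krt14 averaged 652, 591 and 380.7 TPM against 0.224, 0 and 0.0204 TPM, and Krt15, a keratin of basal cells and later of follicle stem cells, 345.5, 379.2 and 194.9 TPM against 0.243, 0.0345 and 0.143 TPM. On the minus strand of chromosome 11 (mm10, GENCODE M21), Krt15 spans 100131758 to 100135928, Krt14 100203162 to 100207548 and Krt17 100256217 to 100261029. These keratins resemble each other and other keratins in sequence, so reads may be shared among such copies.

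Lhx2, a LIM-homeobox factor of follicle progenitors, had the smallest SD over plates of the 30 named genes, with 182.1, 181.7 and 184.4 TPM in epithelial and 0.452, 0.524 and 0.47 TPM in fibroblast-like cells, a log2 fold of 6.95 ± 0.04 (SD, n = 3 plates). It was at 10 TPM or more in 48 of 53 epithelial and 0 of 210 fibroblast-like cells, and a count of 0 allows a share of up to 1.43%. Irx2, an Iroquois homeobox factor, had 239.6, 279.1 and 211.9 TPM against 2.31, 0.742 and 0.383 TPM. It did not separate cells fully, since the lowest epithelial cell had 22.7 TPM and the highest fibroblast-like cell 58.7 TPM. Esrp1, the splicing factor that sets epithelial isoforms, had a log2 fold of 6.09 ± 0.06, and Trim29, a TRIM protein of basal keratinocytes, 6.66 ± 0.21.

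Perp, a desmosomal membrane protein and p63 target, averaged 133.1 against 0.152 TPM, Dsp, the desmosomal plaque protein desmoplakin, 117.6 against 0.288 TPM, and Pkp3, a plakophilin of the same plaque, 74.6 against 0.294 TPM. Lama5, a laminin chain of epithelial basement membranes, averaged 189.5 against 1.73 TPM and Frem2, of the Fraser complex that anchors epidermis, 89.3 against 0.392 TPM. The others of the 15 were Cdh1 at 97.8 against 0.221 TPM, the adhesion receptor Adgrg1 at 302.9 against 1.95 TPM and the phospholipase Plch2 at 99.1 against 0.8 TPM.

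On the fibroblast-like side, collagens and mesenchymal transcription factors were most of the 15. Col1a1 averaged 909, 832 and 774 TPM in fibroblast-like cells of plates 1, 2 and 3 and 3.14, 3.55 and 0.134 TPM in epithelial cells, a log2 fold of -8.24 ± 1.03. The 3 chains of type VI collagen, a beaded filament collagen around cells, were all among the 15: Col6a1 at 0.143 against 133.0 TPM, Col6a2 at 0.596 against 201.5 TPM and Col6a3 at 1.4 against 444 TPM. Fbn2, the microfibril protein of embryonic matrix, averaged 0.584 against 80.2 TPM, and Cdh11, the cadherin of mesenchymal cells, 1.25 against 166.3 TPM.

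Prrx1, a paired-related homeobox factor of craniofacial mesenchyme, averaged 182.9, 218.0 and 173.6 TPM in fibroblast-like cells and 0.476, 0.254 and 0.223 TPM in epithelial cells, a log2 fold of -7.19 ± 0.24. Twist2, a bHLH factor of dermal fibroblasts, averaged 162.2, 165.0 and 195.0 TPM against 0.103, 0.352 and 0.139 TPM, also a log2 fold of -7.19 ± 0.24. Tbx18, a T-box factor of the condensate, had a lowest, median and highest value of 24.6, 117.0 and 381.6 TPM in fibroblast-like cells and 0, 0.208 and 1.1 TPM in epithelial cells. Foxd1, a forkhead factor of the condensate, was at 1 TPM or more in all 210 fibroblast-like cells and in 0 of 53 epithelial cells, which allows up to 5.66%. Tbx18 and Foxd1 were thus detected in every fibroblast-like cell.

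Ebf1 and Ebf3, early B-cell factor family members expressed in mesenchyme, averaged 0.413 against 122.6 TPM and 0.842 against 165.5 TPM. Zeb2, a repressor of epithelial genes, averaged 4.11 against 344.4 TPM, and Cyp26b1, which breaks down retinoic acid, 0.162 against 98.4 TPM. Gfra1, a receptor for the growth factor Gdnf, was uneven among fibroblast-like cells, unlike Tbx18 and Foxd1: it was at 10 TPM or more in 113 of 210, with a median of 15.5 and a highest value of 435 TPM. All 30 named genes were called in the same direction at E14.0, E15.0 and E17.0 under the same rule. They were chosen for the largest folds, and the same 4 rule genes set the classes at each stage. Of all 1072 epithelial calls, 63.7%, 45.3% and 47.3% were made again at these stages. Of all 1555 fibroblast-like calls, 55.7%, 44.1% and 47.7% were.

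Promoter sequence is shown for 4 of these genes, a homeobox and a desmosome gene of the epithelial side and a bHLH and a T-box gene of the fibroblast-like side, because they stand at opposite ends of the contrast. Each is the 250 bases before the RefSeq start (build GRCm38.p6), 5′ to 3′ on the gene's strand, with E-boxes (CANNTG, which bHLH and Zeb factors can bind) and Tfap2 motifs (GCCNNNGGC) in capitals. Both motifs read the same in form on either strand, so both strands were covered.
Irx2, chr13:72628570-72628819, plus strand: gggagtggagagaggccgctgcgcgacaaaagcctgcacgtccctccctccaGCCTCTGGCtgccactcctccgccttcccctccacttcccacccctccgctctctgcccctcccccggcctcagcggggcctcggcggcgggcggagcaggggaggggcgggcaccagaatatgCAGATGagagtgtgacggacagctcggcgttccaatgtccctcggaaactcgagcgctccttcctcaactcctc
Dsp, chr13:38151044-38151293, plus strand: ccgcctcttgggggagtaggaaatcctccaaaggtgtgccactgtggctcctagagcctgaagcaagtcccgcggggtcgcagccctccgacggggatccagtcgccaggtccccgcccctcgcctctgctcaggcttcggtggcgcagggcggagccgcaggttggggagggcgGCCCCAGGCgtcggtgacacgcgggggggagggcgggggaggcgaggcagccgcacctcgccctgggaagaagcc
Twist2, chr1:91801211-91801460, plus strand: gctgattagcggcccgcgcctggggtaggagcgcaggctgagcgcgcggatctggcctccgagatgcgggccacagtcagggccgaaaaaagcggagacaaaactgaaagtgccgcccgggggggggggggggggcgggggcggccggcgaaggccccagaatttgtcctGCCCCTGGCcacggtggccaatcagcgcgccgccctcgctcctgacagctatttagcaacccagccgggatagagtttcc
Tbx18, chr9:87731261-87731510, minus strand: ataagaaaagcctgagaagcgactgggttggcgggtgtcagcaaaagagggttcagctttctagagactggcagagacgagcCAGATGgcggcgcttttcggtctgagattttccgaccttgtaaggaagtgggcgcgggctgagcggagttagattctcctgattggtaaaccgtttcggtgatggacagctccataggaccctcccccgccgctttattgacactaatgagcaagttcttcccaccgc
Irx2 held 1 E-box and 1 Tfap2 motif, Dsp and Twist2 1 Tfap2 motif each, and Tbx18 1 E-box. Among the promoters considered but not printed, Lama5 held 2 E-boxes, Ebf3 1 Tfap2 motif, and Frem2 and Col6a3 neither motif. The letters of a motif do not show that a factor binds there.

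Over RefSeq promoters that run to 50 bases past the start, 9403 tested genes had a single entry. An E-box was in 64.6% of them, in 71.8% of the 468 called higher in epithelial cells and in 60.4% of the 543 called higher in fibroblast-like cells. A Tfap2 motif was in 24%, 23.9% and 28.2% in the same order. GGGCGGG, the Sp motif, was in 44.8%, 50.6% and 49.2%, TATAAA in 8.31%, 10.3% and 8.29%, and AACCGGTT, the Grhl motif, in 0.266%, 0.641% and 0.552%. Median GC content was 60%, 61.3% and 61.7%. These shares are given with no test, and motifs were searched on both strands with no allowance for overlap among them.

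Cell junction genes divided the classes almost without exception. Of 25 members in the list of junction and epithelial splicing genes, 24 were called higher in epithelial cells and 0 in fibroblast-like cells, with a median log2 fold of 3.79. Among claudins, the strands of tight junctions, Cldn6 averaged 33.03 against 0.2 TPM, Cldn4 18.8 against 0.0697 TPM, Cldn7 13.8 against 1.84 TPM and Cldn3 2.73 against 0.0844 TPM. Jup, the plakoglobin shared by desmosomes and cadherin junctions, was also well above 0 in fibroblast-like cells, at 345.8 against 23.8 TPM. Cdh3, the P-cadherin of placodes, averaged 48.4 against 0.755 TPM. Ctnnb1, the beta-catenin that serves both junctions and Wnt signalling, averaged 2536, 2519 and 2064 TPM in epithelial and 891, 831 and 680.2 TPM in fibroblast-like cells, a log2 fold of 1.57 ± 0.05.

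In the basal epidermis list, 10 of 12 tested members were called higher in epithelial cells, and Sfn, the 14-3-3 protein of stratified epithelium, averaged 123.4 against 2.49 TPM. In the simple epithelium and periderm list 7 of 9 tested members were called. Some of these were in few cells: Krt8, a keratin of single-layered epithelium, was at 10 TPM or more in 9 of 53 epithelial cells, and Krt6a, a periderm and companion layer keratin, in 5, with 2.36, 9 and 25.5 TPM on the plates and a listed 0 in fibroblast-like cells of every plate.

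Of 29 tested epithelial transcription factors, 22 were called higher in epithelial cells and 0 in fibroblast-like cells. Tfap2b, an AP-2 factor of surface ectoderm, averaged 73.98 against 0.691 TPM, and Tfap2a, also found in neural crest, 50.3 against 8.93 TPM. Grhl2, the grainyhead factor that maintains junctions, averaged 52.1 against 0.863 TPM, and its relative Grhl3, of the skin barrier, 23.5 against 0.0877 TPM. Gata3, a factor of follicle and epidermal lineages, averaged 148.7 against 5.24 TPM and Sox9, the factor of early follicle stem cells, 52.5 against 5.19 TPM. Foxi3, which acts in placodes, averaged 15.5 against 0.0392 TPM and was at 10 TPM or more in 22 of 53 epithelial cells.

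Irx1, Irx2, Irx3, Irx4 and Irx5, all Iroquois homeobox factors, were called higher in epithelial cells, and Irx6 was below the filter. Irx4 averaged 43.4 against 0.0405 TPM and Irx5 6.25 against 1.01 TPM. Of these 5, Irx1 varied most over plates, with 11.4, 16.3 and 32.2 TPM in epithelial and 3.22, 1.95 and 0.804 TPM in fibroblast-like cells, a log2 fold of 2.77 ± 1.34.

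Among 34 tested mesenchymal transcription factors, 21 were called higher in fibroblast-like and 3 in epithelial cells, with a median log2 fold of -2.53. Twist1, the relative of Twist2 needed for head mesenchyme, averaged 0.516 against 40.5 TPM. Alx4, a homeobox factor of the facial mesenchyme, averaged 0.335 against 40.2 TPM, Lhx6, of oral and facial mesenchyme, 0.251 against 19.2 TPM, and Pax3, a factor of neural crest, 0.851 against 16.5 TPM. Tcf4, a bHLH factor, was high in both classes and differed less, at 125.3 against 409 TPM.

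The 3 exceptions were factors that epithelium also uses. Runx1, a runt factor of both layers in hair follicles, averaged 85.9, 91.1 and 102.1 TPM in epithelial cells of plates 1, 2 and 3 and 17.9, 14.1 and 14 TPM in fibroblast-like cells. Msx2, a homeobox target of BMP signals, averaged 5.39 against 0.399 TPM, and Dlx5, a distal-less factor, 2.87 against 0.271 TPM. Runx1 overlapped between classes, since its highest fibroblast-like cell had 113.9 TPM. Snai2, a repressor linked to cell migration, was not called and leaned to the epithelial side, with 21.7, 23.6 and 12.1 TPM against 8.09, 9.31 and 8.24 TPM.

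**Figure D3:**
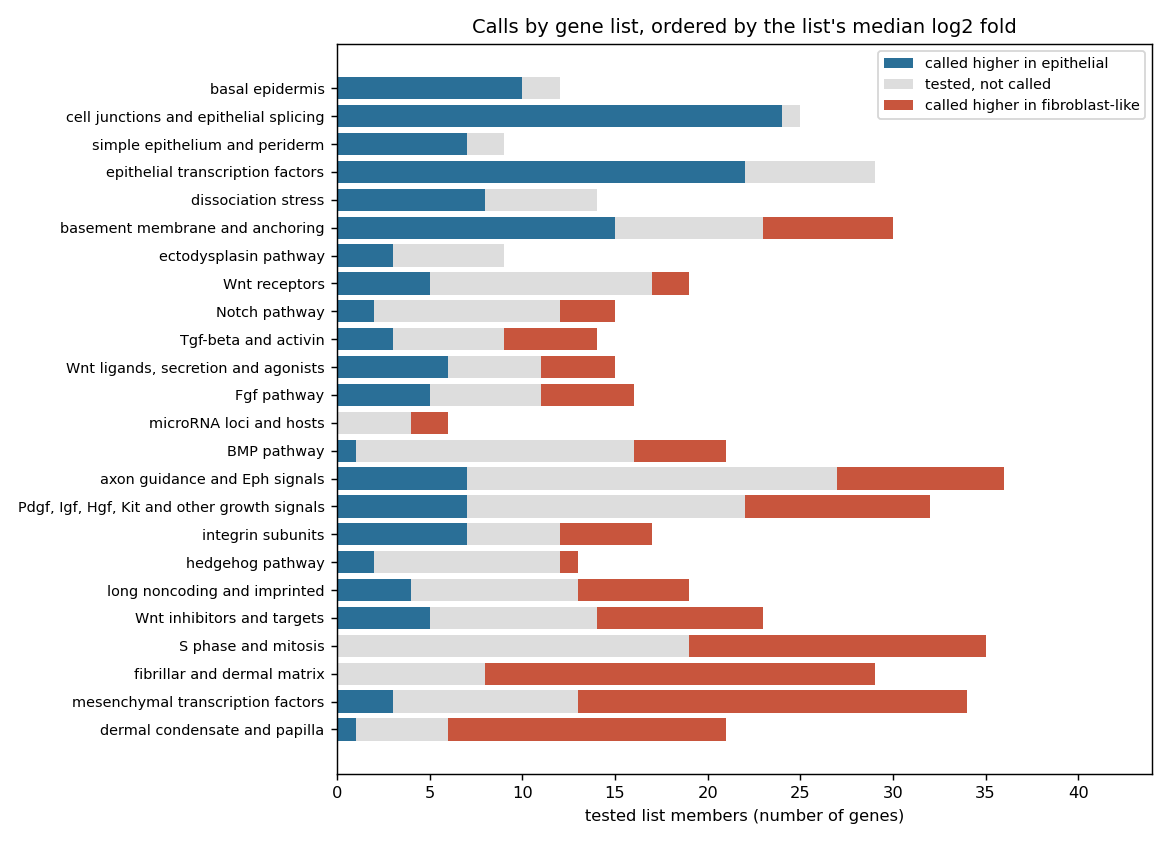
Number of tested members of each gene list called higher in epithelial cells (blue), called higher in fibroblast-like cells (red) or not called (grey), with lists ordered by their median log2 fold. Junction, keratin and epithelial factor lists are almost all blue or grey, matrix and condensate lists almost all red or grey, and most signalling lists hold both colours.

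Matrix genes were on the fibroblast-like side, with exceptions by level. Of 29 tested members of the fibrillar and dermal matrix list, 21 were called higher in fibroblast-like and 0 in epithelial cells, with a median of -2.31. Col1a2, the partner chain of Col1a1, averaged 7.81 against 208.8 TPM, Lox, the enzyme that crosslinks collagen, 0.134 against 8.39 TPM, Postn, a periostin matricellular protein, 18.6 against 78.2 TPM, and Lum, the collagen-binding proteoglycan lumican, 0.0662 against 7.61 TPM.

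Versican, fibronectin and SPARC did not follow them. Vcan, the large proteoglycan often used as a condensate marker, averaged 417, 426 and 262.3 TPM in epithelial cells of the 3 plates and 197.6, 207.2 and 170.7 TPM in fibroblast-like cells, a log2 fold of 1.07, 1.04 and 0.62 on plates 1, 2 and 3. Fn1, fibronectin, averaged 189.8 against 227.6 TPM and Sparc, a collagen-binding matricellular protein, 121.0 against 122.1 TPM. The rule gene Col3a1 apart, these 3 matrix genes were therefore well expressed in both classes.

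The basement membrane list was split. Of 30 tested members, 15 were called higher in epithelial cells and 7 in fibroblast-like cells. On the epithelial side were laminin chains of epidermal basement membrane, with Lama3 at 36.3 against 0.194 TPM and Lamc1 at 58.9 against 26.5 TPM. Anchoring genes joined them: Col17a1, the transmembrane collagen of hemidesmosomes, averaged 51.6 against 0.688 TPM, Col7a1, of anchoring fibrils, 163.7 against 25.5 TPM, Fras1, the partner of Frem2, 107.9 against 8.5 TPM, and Npnt, the integrin ligand nephronectin, 13.9 against 0.686 TPM.

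On the fibroblast-like side were other laminin chains and linkers. Lama2, the alpha chain of mesenchymal laminin, averaged 47.6, 54.5 and 50.8 TPM in fibroblast-like cells of plates 1, 2 and 3 and 0.601, 0.685 and 0.747 TPM in epithelial cells, and Lama4 averaged 0.675 against 12.3 TPM. The nidogens, which link laminin to type IV collagen, were Nid1 at 18.3 against 110.5 TPM and Nid2 at 0.0967 against 8.22 TPM. Egfl6, a basement membrane protein of skin, averaged 0.815 against 45.4 TPM. Col4a1 and Col4a2, the common chains of type IV collagen, were not called, at 67.3 against 59.7 TPM and 18.1 against 15.8 TPM. Laminin alpha chains were thus divided between the classes.

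Integrins, the receptors for these proteins, were divided too, with 7 of 17 tested called higher in epithelial cells and 5 in fibroblast-like cells. Itga6 had a log2 fold of 2.06 ± 0.13 and its hemidesmosomal partner Itgb4 3.73 ± 0.11, at 76.9 against 4.87 TPM. Itgb6, a beta chain of epithelial cells, averaged 6.8 against 0.193 TPM. Itga9 averaged 7.22 against 99.4 TPM, Itga8, a receptor for nephronectin, 1.16 against 12.6 TPM, and Itga5, a receptor for fibronectin, 6.57 against 16.98 TPM. Itgb1, the beta chain shared by many pairs, was not called, at 45.7 against 63.9 TPM.

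Condensate genes were on the fibroblast-like side but in differing shares of its cells. Of 21 tested members of the dermal condensate and papilla list, 15 were called higher in fibroblast-like cells and 1, the cell adhesion gene Nrcam, in epithelial cells, with a median of -2.82. Crabp1, a retinoic acid binding protein, averaged 0.814 against 80.1 TPM and was at 1 TPM or more in 98.6% of fibroblast-like cells. Sox2, the factor of condensates, averaged 15.7, 14.5 and 19.98 TPM in fibroblast-like cells of the plates and 0.501, 0.414 and 0.564 TPM in epithelial cells, and reached 10 TPM in 75 of 210 cells (35.7%, exact 95% interval 29.2 to 42.6%). Sox18, a related factor of early condensates, reached it in 33 and Cxcr4, a chemokine receptor, in 60. No epithelial cell reached 10 TPM of Sox2, Sox18, Cxcr4 or Crabp1.

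Wnt ligands differed in kind between the classes. Among 15 tested Wnt ligands, secretion genes and agonists, 6 were called higher in epithelial and 4 in fibroblast-like cells. Wnt10b, a ligand of placodes, averaged 20.7, 18.2 and 8.28 TPM in epithelial cells of plates 1, 2 and 3 and 0.0101, 0.0518 and 0.0391 TPM in fibroblast-like cells, a log2 fold of 3.92 ± 0.67. Wnt6 averaged 27.2 against 0.646 TPM, Wnt7b 13.03 against 0.0259 TPM, Wnt4 10.04 against 1.78 TPM, Wnt3 3.91 against 0.0683 TPM and Wnt10a 2.27 against 0.261 TPM. Wnt7b was at 10 TPM or more in 24 of 53 epithelial and 0 of 210 fibroblast-like cells.

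The fibroblast-like ligands were Wnt5a, which acts mainly without beta-catenin, with 57.3, 76.4 and 69.2 TPM against 11.496, 8.49 and 7.51 TPM, Wnt5b at 0.346 against 4.79 TPM and Wnt11 at 0.212 against 2.64 TPM. Rspo3, an agonist that strengthens Wnt signals through Lgr receptors, averaged 0.0378 against 8.03 TPM, while 2 of those receptors, Lgr4 and Lgr6, were higher in epithelial cells at 97.2 against 31.6 TPM and 52.98 against 9.88 TPM. Ror2, a receptor for Wnt5a, was on the same side as its ligand, at 0.967 against 29 TPM. Wls, which carries Wnt proteins to the surface, and Porcn, which adds their lipid, were not called, at 62.1 against 40.4 TPM and 2.96 against 3.78 TPM.

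Several genes that Wnt signals commonly induce were higher in fibroblast-like cells. Lef1, a nuclear partner of beta-catenin and itself a target, averaged 384.0, 415 and 446 TPM in fibroblast-like and 49.6, 59.7 and 37.2 TPM in epithelial cells, a log2 fold of -3.08 ± 0.41. Its lowest, median and highest cells were 48.04, 363.0 and 1766 TPM in the fibroblast-like class and 0, 12.7 and 313.9 TPM in the epithelial class, so the classes overlapped. Axin2, the general feedback target, averaged 5.29 against 18.5 TPM, and the feedback inhibitors Nkd1 and Nkd2 averaged 3.89 against 31.5 TPM and 3.03 against 39.3 TPM. Feedback targets that clear Wnt receptors went the other way: Rnf43 averaged 31.99 against 0.75 TPM and Znrf3 29.6 against 11.3 TPM.

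Of the secreted Wnt inhibitors, 5 were called higher in fibroblast-like cells. Sfrp2, a decoy for Wnt proteins, averaged 5.53 against 121.7 TPM, Sfrp1 0.94 against 4.8 TPM, Frzb 0.0258 against 3.38 TPM, Dkk1 0.605 against 10.9 TPM and Dkk2 0.376 against 7.67 TPM. Kremen2, a receptor for Dkk proteins, was higher in epithelial cells at 39.2 against 0.854 TPM. Sostdc1, an inhibitor of both Wnt and BMP, averaged 86.4 against 11.3 TPM. In all, 9 of 23 tested inhibitors and targets were called higher in fibroblast-like and 5 in epithelial cells.

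**Figure D4:**
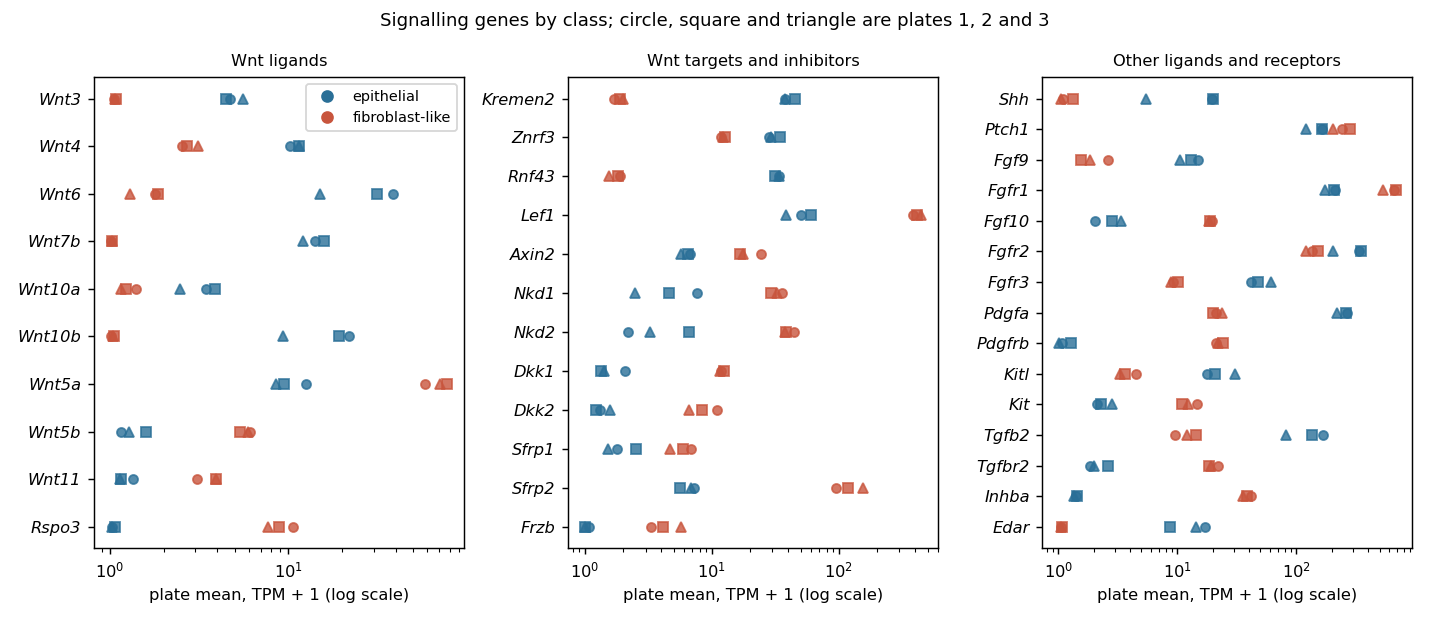
Plate means (TPM + 1, log axis) of Wnt ligands, of Wnt targets and inhibitors, and of other ligands and receptors in epithelial (blue) and fibroblast-like (red) cells, with a symbol for each of the 3 plates. Wnt3, Wnt4, Wnt6, Wnt7b, Wnt10a and Wnt10b are higher in epithelial cells and Wnt5a, Wnt5b, Wnt11 and Rspo3 in fibroblast-like cells, while Lef1, Axin2, Nkd1 and Nkd2 are higher in fibroblast-like cells.

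For hedgehog signals the ligand gene was called higher in epithelial cells. Shh, the ligand of the placode and hair peg, averaged 18.7, 18.95 and 4.44 TPM in epithelial cells of plates 1, 2 and 3 and 0.099, 0.327 and 0.0526 TPM in fibroblast-like cells, and came from 12 of 53 epithelial cells at 10 TPM or more. Plate 3 was lower than the others. Ptch1, the receptor and general target, averaged 149.0 against 240.9 TPM, Gli1, a target that reads the signal most directly, 60.2 against 95.3 TPM, and Smo, the signal transducer, 37.5 against 41.3 TPM, and none was called. Hhip, a decoy for the ligand, was higher in fibroblast-like cells at 0.162 against 12.6 TPM.

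Fgf ligands and receptors differed in kind between the classes. Fgf9, a ligand of epithelium, averaged 11.8 against 1.01 TPM and Fgf10, a ligand of mesenchyme, 1.74 against 17.9 TPM. Fgfr1 averaged 664, 681 and 538 TPM in fibroblast-like and 210.0, 208.1 and 173.7 TPM in epithelial cells, and Fgfr3 40.5, 46.3 and 60.7 TPM in epithelial and 8.17, 9.09 and 7.93 TPM in fibroblast-like cells. Fgfr2, whose splice forms differ between the layers, was not called at gene level, at 295.8 against 135.1 TPM. Of the Fgf response genes, Spry2, Dusp6 and Etv4 were higher in epithelial cells, at 26.9 against 9.02 TPM, 34.6 against 10.5 TPM and 11.2 against 2.49 TPM. Spry1, Spry4 and Etv5, also in the list, were called in neither direction. Each direction held 5 of the 16 tested genes.

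In the ectodysplasin pathway 3 of 9 tested genes were called higher in epithelial cells. Edar, the receptor of placodes, averaged 12.4 against 0.065 TPM and was at 10 TPM or more in 19 of 53 epithelial cells and 0 fibroblast-like cells. Tnfrsf19, a related receptor, averaged 24.96 against 3.79 TPM. The ligand gene Eda was low in both, at 1.65 against 3.04 TPM.

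Of 21 tested BMP genes, 1 was called higher in epithelial and 5 in fibroblast-like cells. The other 15 were not called, as were 21597 of all 24224 tested genes. Bmp7 averaged 92 against 58.1 TPM, Bmp4 5.86 against 15.9 TPM and Bmp2 6.01 against 0.78 TPM. None of these 3 was called, and epithelial Bmp2 was uneven over plates 1, 2 and 3, at 10.9, 6.05 and 1.03 TPM. The inhibitors Chrdl1 and Nog were called higher in fibroblast-like cells, with Chrdl1 at 0.283 against 24.4 TPM and Nog, or noggin, at 0.613 against 3.57 TPM. Bmp3, a BMP with opposing action, averaged 1.76 against 9.7 TPM.

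In the Tgf-beta family 2 ligands were higher in epithelial cells and 2 receptors in fibroblast-like cells. Tgfb2 averaged 165.1, 134.6 and 80.5 TPM in epithelial cells of plates 1, 2 and 3 and 8.58, 13.3 and 11.2 TPM in fibroblast-like cells, and Tgfb3 averaged 48.8 against 6.81 TPM. Tgfbr2, the type 2 receptor, averaged 1.16 against 18.8 TPM, Tgfbr3, the co-receptor betaglycan, 5.06 against 70.97 TPM, and Tgfbi, a matrix protein that Tgf-beta induces, 2.73 against 43.2 TPM. Inhba, the activin A subunit, was fibroblast-like at 0.405 against 37.8 TPM, and Acvr1b, an activin receptor, was epithelial at 34.05 against 3.87 TPM.

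Further ligands and receptors lay on opposite sides. Pdgfa, the ligand of the rule gene Pdgfra, averaged 266.8, 260.8 and 217.9 TPM in epithelial and 20.1, 18.8 and 22.9 TPM in fibroblast-like cells, a log2 fold of 3.53 ± 0.29, and Pdgfrb, the other receptor of the family, averaged 0.129 against 21.4 TPM. Kitl, the ligand that guides melanocyte precursors, averaged 22.1 against 2.82 TPM and its receptor Kit 1.41 against 11.7 TPM. Nrg1, a neuregulin, was higher in fibroblast-like cells at 3.92 against 13.498 TPM and its receptor Erbb3 in epithelial cells at 36.8 against 0.155 TPM. Gdnf was fibroblast-like at 0.113 against 5 TPM, on the same side as its receptor Gfra1. Igf1 averaged 2.63 against 57.5 TPM, while Igf2 was not called, at 290.3 against 165.3 TPM. Of 32 tested genes in this list, 7 were called higher in epithelial and 10 in fibroblast-like cells.

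Among Notch genes, ligands and targets were called on both sides. Of the ligands, Jag2 was higher in epithelial cells at 80.01 against 5.4 TPM and Dll1 in fibroblast-like cells at 6.21 against 16.8 TPM. Of the targets, Nrarp was higher in epithelial cells at 8.83 against 0.205 TPM, and Hey1 and Hey2 in fibroblast-like cells at 3.29 against 15.4 TPM and 0.113 against 2.47 TPM. The other 10 of 15 tested genes were not called. Guidance genes were divided 7 to 9 among 36 tested. Slit2 and Slit3, secreted repellents of axons and cells, averaged 9.95 against 97.2 TPM and 12.4 against 120.5 TPM, Ntn1, a netrin, 1.02 against 24 TPM, and the Eph receptors Epha3 and Epha4 0.0978 against 27.4 TPM and 20.9 against 83.5 TPM. Epithelial cells were higher in the ephrin Efna1 at 26.4 against 1.31 TPM, the receptor Epha1 at 11.502 against 0.674 TPM and the semaphorin Sema3e at 15.6 against 0.538 TPM.

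Imprinted long noncoding RNAs split by locus. Meg3, Rian and Mirg, maternally expressed RNAs in a row on mouse chromosome 12, and their neighbour Dlk1, a paternally expressed membrane protein gene, were all higher in fibroblast-like cells. Rian averaged 500.1, 576 and 609.7 TPM in fibroblast-like cells of plates 1, 2 and 3 and 19.4, 23.1 and 18.95 TPM in epithelial cells, Meg3 4.86 against 159.8 TPM, Mirg 0.645 against 22.9 TPM and Dlk1 0.175 against 36.9 TPM. The 4 genes run on the plus strand from 109452823 to 109749460 (mm10, GENCODE M21). H19, the maternally expressed RNA beside Igf2 on chromosome 7, was higher in epithelial cells, with 997, 1119.7 and 1671 TPM against 303.3, 274.8 and 337.1 TPM. Neat1, of nuclear paraspeckles, averaged 19.1 against 6.19 TPM and Peg3, a paternally expressed zinc finger gene, 170.7 against 74.3 TPM, both higher in epithelial cells.

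Noncoding RNA of the miR-199a and miR-214 locus was seen through its host. Dnm3os, a long RNA on chromosome 1 (162217623 to 162225550, plus strand) that carries both microRNAs, averaged 15.7, 19.4 and 22.4 TPM in fibroblast-like and 0.43, 0.131 and 0.123 TPM in epithelial cells. The symbol Mir199a-2 lies inside it (162217814 to 162217923), averaged 2.23 against 14.5 TPM and was at 1 TPM or more in only 30 of 210 fibroblast-like cells. Whether the authors counted by strand is not given in the sources used here, so reads of Dnm3os, of its microRNA symbols and of the gene opposite cannot be told apart. Of the 13 microRNA loci and hosts with values, 7 were below the filter.

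Genes of mitosis were higher in fibroblast-like cells, and none of the 15 genes of DNA replication in the same list was called. In the list of S phase and mitosis genes, 16 of 35 were called higher in fibroblast-like cells and 0 in epithelial cells, with a median log2 fold of -1.04. Top2a, the topoisomerase of dividing cells, averaged 88.5, 106.0 and 108.4 TPM in fibroblast-like cells of plates 1, 2 and 3 and 14.2, 36.4 and 24.3 TPM in epithelial cells. It was at 10 TPM or more in 141 of 210 fibroblast-like cells (67.1%, exact 95% interval 60.3 to 73.5%) and 17 of 53 epithelial cells (32.1%, 19.9 to 46.3%). Aurkb, a mitotic kinase, averaged 32.5, 34.4 and 32.1 TPM against 2.71, 4.61 and 5.15 TPM, and Mki67, the Ki-67 protein, 53.4, 54.8 and 38.1 TPM against 7.55, 23.96 and 10.4 TPM.

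Mcm5, of the replicative helicase, averaged 48.4 against 82.7 TPM, Mcm2 49.8 against 56 TPM and Pcna, the polymerase clamp, 55.2 against 64.7 TPM. Rrm2, of the enzyme that makes deoxynucleotides, and the initiation factors Cdc45 and Cdc6 had mean log2 folds of -1.11, -1.04 and -1.04, past 1 in size but not on every plate. Ccnd1, a cyclin of early cell cycle, was called higher in fibroblast-like cells at 88.6 against 227.6 TPM. The mitotic count depends on the average used: 8 of 35 genes were called from means of log2 values and 7 from plate medians, against 16 from plate means.

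Genes induced by tissue dissociation went the other way. Of 14 immediate early and heat shock genes, 8 were called higher in epithelial and 0 in fibroblast-like cells, with a median of 1.80. Atf3, a stress-induced factor, averaged 52.3, 101.3 and 256.2 TPM in epithelial cells of plates 1, 2 and 3 and 0.651, 0.397 and 0.919 TPM in fibroblast-like cells. It was at 10 TPM or more in 38 of 53 epithelial and 4 of 210 fibroblast-like cells. Fos averaged 160.9, 263.0 and 421 TPM against 24.4, 32.3 and 28.2 TPM, and Jun 181.0, 184.3 and 445 TPM against 37.4, 43.1 and 54.7 TPM. The heat shock genes Hspa1a and Hspa1b, near-identical copies whose reads cannot be assigned with certainty, averaged 86.3 against 1.38 TPM and 249.5 against 4.03 TPM.

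For Atf3, Fos and Jun the epithelial cells of plate 3 were the highest, with 256 TPM of Atf3 and 445 TPM of Jun, and leaving out plate 3 left 8 of 14 genes called. The share of mitochondrial RNA, given above, was also higher in the epithelial cells of each plate. The part of cell handling in these differences was not tested.

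**Figure D5:**
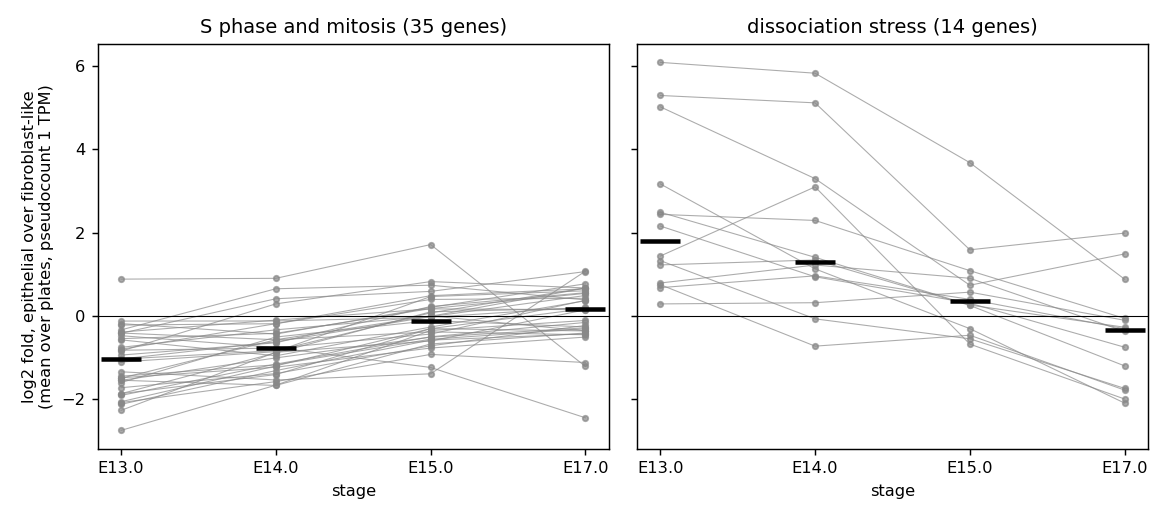
Log2 fold of epithelial over fibroblast-like cells (mean over plates) for each of 35 S phase and mitosis genes and 14 dissociation stress genes at E13.0, E14.0, E15.0 and E17.0, with a black bar at each median. The mitosis median goes from -1.04 at E13.0 to 0.17 at E17.0 and the stress median from 1.80 to -0.34.

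The same rule at later stages gives a background for these programs. E14.0 had 2 plates with 144 epithelial and 19 fibroblast-like cells, E15.0 had 4 with 178 and 126, and E17.0 had 3 with 180 and 46. Plate 1 of E15.0 stands apart, with 11.1% epithelial and 81.1% fibroblast-like cells, close to the E13.0 mixture, so counts of calls and list medians of E15.0 are also given without it. In the labels it carries the same plate code as plate 1 of E13.0, and plates 2, 3 and 4 of E15.0 carry the codes of plates 1, 2 and 3 of E17.0. What the code stands for is not given. Of the 81 wells with a cell on both plate 1 of E13.0 and plate 1 of E15.0, 0 held identical values and 49 the same class, and the log2 values of same-named wells had a median correlation over genes of 0.763, against 0.767 for other wells. The part of the shared codes in the differences between stages was not tested. The number of plates differs between stages and a call needs every plate, so counts of calls are not equally strict between stages, and medians are given beside them. At E14.0, 6.3% of tested genes were called higher in epithelial and 7.54% in fibroblast-like cells, at E15.0 3.12% and 4.45% (1048 and 1534 of 24508 genes without plate 1), and at E17.0 4.17% and 6.55%.

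Of the 1072 genes called higher in E13.0 epithelial cells, 683 were called so at E14.0, which is 63.7% of the E13.0 list and 44.9% of the E14.0 list. At E15.0 the shared genes were 486 (45.3% and 63.5%) and at E17.0 507 (47.3% and 51%). Of the 1555 genes called higher in fibroblast-like cells, 866 were shared with E14.0 (55.7% and 47.6%), 686 with E15.0 (44.1% and 63%) and 742 with E17.0 (47.7% and 47.5%). Without plate 1 of E15.0, 565 and 797 genes were shared.

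The junction list had 24 of 25, 22 of 23, 19 of 22 and 19 of 23 tested members called higher in epithelial cells at E13.0, E14.0, E15.0 and E17.0, and the fibrillar matrix list 21 of 29, 24 of 30, 24 of 30 and 23 of 30 in fibroblast-like cells. The mitosis list was less even. Its median log2 fold was -1.04, -0.78, -0.11 and 0.17 in the same order. Of its 35 genes, 2, 0 and 1 were called higher in fibroblast-like cells at E14.0, E15.0 and E17.0, against 16 at E13.0, and 0 at E15.0 without plate 1, where the median was -0.19. Aurkb, called at E13.0, averaged 25.1 against 81.2 TPM at E14.0, 17.7 against 25.8 TPM at E15.0 and 21.3 against 26.2 TPM at E17.0. Its E15.0 log2 folds were -0.13, -0.46, 1.22 and -2.03 on plates 1 to 4, so the plates differed in sign. Epithelial Aurkb at E13.0, at 4.16 TPM, was thus the lowest of these stages. The stress list had medians of 1.80, 1.28, 0.35 and -0.34, and 8 of its 14 genes were called higher in epithelial cells at E14.0, 1 at E15.0, with or without plate 1, and 0 at E17.0. The E15.0 stress median was 0.27 without plate 1. Atf3 averaged 70.2 against 0.242 TPM at E14.0, 81.1 against 7.24 at E15.0 and 29.2 against 17.6 at E17.0. Differences between stages were not tested.

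Vcan, not called at E13.0, was called higher in fibroblast-like cells at each later stage. It averaged 215.0 against 464 TPM at E14.0, 105.3 against 635 at E15.0 and 30.02 against 884 at E17.0. Its log2 fold thus went from 0.91 at E13.0 to -4.72 at E17.0.

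Markers of other cell types were mostly low in both classes. Summed over the 8 endothelial markers, plate means were 12.5 to 19.6 TPM in epithelial and 15.8 to 17.4 TPM in fibroblast-like cells, and Cdh5, the defining cadherin of endothelium, was under 1 TPM on every plate. Kdr, a vascular receptor, was the 1 member called, at 0.114 against 4.67 TPM. The 10 immune and blood markers summed to 5.79 to 19 TPM and 11.7 to 16.7 TPM, with 0 called. The 8 pericyte and smooth muscle markers summed to 54.2 to 62.7 TPM in epithelial and 24.4 to 26.3 TPM in fibroblast-like cells, where Mcam, an adhesion molecule, averaged 34.4 against 11.9 TPM.

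For nerve, Schwann and melanocyte cells the 11 markers summed to 48.3 to 63.7 TPM and 56.8 to 85.5 TPM, and Sox10, their defining factor, was under 1 TPM on every plate. Stmn2, a tubulin regulator best known from neurons, accounted for most of the sum in fibroblast-like cells, at 47.2, 74.5 and 54.3 TPM on plates 1, 2 and 3, and was at 10 TPM or more in 70 of 210. Erbb3, at 36.8 TPM on average, accounted for most of the sum in epithelial cells and was called higher there. The 9 muscle and cartilage markers summed to 15 to 21.8 TPM and 35.4 to 41.3 TPM, with Acan, the cartilage proteoglycan, at 0.355 against 21.2 TPM, Sox5, a transcription factor of cartilage and other cells, called higher in epithelial cells at 15.8 against 2.3 TPM, and Col2a1, cartilage collagen, at 0.607 against 13.2 TPM. The 6 innervation and Merkel markers summed to 2.54 to 7.85 TPM and 30.6 to 34.4 TPM, of which Sox2 made up 14.5 to 20 TPM in fibroblast-like cells. None of 6 sex-linked genes was called, and Xist, the RNA of the inactive X chromosome, was at 10 TPM or more in 21 of 53 epithelial and 101 of 210 fibroblast-like cells, while Ddx3y, of the Y chromosome, was in 23 of 53 and 101 of 210, so both classes held cells of both sexes. The part of other cell types in the differences above was not tested.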

How the data were processed

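Single cells of E13.0 whisker follicles were analysed from 1 table of TPM values (49662 gene symbols) that the authors deposited for the series. They used HISAT2 2.0.4, featureCounts of Subread 1.5.0, bcl2fastq 1.0 and the mm10 build, per the submitters' processing notes. The annotation release, the strand setting and the read depth are not given in the sources used here. Of 1666 labelled cells, 52 with a low-quality label were left out (9 of 276 at E13.0), and all 1614 others had values. No column was left unused and no 2 E13.0 cells were identical. Cells were sorted singly, so no doublet caller was run.

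Class members and gene lists were chosen with earlier results of these data known. Plate means of each class were compared as log2((epithelial TPM + 1)/(fibroblast-like TPM + 1)) within each of the 3 plates, among symbols whose mean of the class means was at least 1 TPM, without the 4 rule genes. Means over plates weight plates equally. Shares carry exact (Clopper-Pearson) 95% intervals, and a count of 0 allows up to 3 cells. These cover counting error only, and no test was made. Named genes were, in each direction, the 15 called genes with the largest smallest plate fold among those at 20 TPM or more in the higher class and with 50% or more of its cells at 1 TPM on each plate, passing over rule genes, pseudogenes, predicted genes and symbols of small RNAs, mitochondria or ribosomal proteins. Members of the 31 lists could be named too.

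Alternatives were other pseudocounts, filters, averages, scalings, class thresholds and folds, and leaving out each plate. E15.0 was also analysed without its plate 1, which was chosen after its class counts were seen. Gene types and coordinates came from GENCODE M21 and promoters from RefSeq (GRCm38.p6), matched by symbol. Of the 30 named genes 14 had a single promoter entry, and the start of 8 equalled the GENCODE start. Only those 8 were considered for printing. The software was matplotlib 3.10.9, scipy 1.17.1, pandas 2.3.3, numpy 2.4.6 and Python 3.11.15, and the fold and call steps were tested on simulated data.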

Additional observations from a re-analysis of the deposited data

Results flagged for a closer look

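A small set of genes was called in opposite directions at E13.0 and at a later stage, with every plate on 1 side at each stage. Of the 1072 genes called higher in E13.0 epithelial cells, 0, 0 and 7 were called the other way at E14.0, E15.0 and E17.0. Of the 1555 called higher in fibroblast-like cells, 16, 1 and 7 were. The 2 plates of E14.0 held only 9 and 10 fibroblast-like cells. The difference between stages was not tested. Predicted and small RNA genes are in these counts, and only the others are listed below. At E14.0 the genes were Myc, a growth-promoting factor, with a log2 fold of epithelial over fibroblast-like cells of -1.63 at E13.0 and 1.65 at E14.0, and Stom, a membrane protein, with -1.50 and 1.62. Epithelial Myc averaged 6.99 TPM at E13.0 and 58.2 TPM at E14.0, while fibroblast-like Myc averaged 23.7 and 17.8 TPM. At E15.0 it was Cd44, a hyaluronan receptor, with -1.59 at E13.0 and 1.70 at E15.0.

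At E17.0, 8 listed genes were opposite to E13.0, and none was among the 30 named genes. Adamts20, a matrix protease, went from -4.37 to 2.40 and Unc5d, a netrin receptor, from -2.18 to 2.36. Adamts20 averaged 1.14 TPM in epithelial and 43.7 TPM in fibroblast-like cells at E13.0, and 32.1 and 5.33 TPM at E17.0. The other 6 were higher in epithelial cells at E13.0 and in fibroblast-like cells at E17.0. Cgnl1, a junction protein, had 2.31 and then -1.44, Parm1 had 3.01 and -1.97, and Slc40a1, the iron exporter, had 3.88 and -2.08. Spry2, the Fgf feedback gene, had 1.49 and -1.88, Synj2 had 1.27 and -1.68, and Tnfaip3, an inhibitor of NF-kB signals, had 2.16 and -1.74.

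Plate 1 of E15.0 stood apart from its 3 companions in Dixon's ratio of gap to range, which flags about 1 in 20 groups by chance. Its epithelial share, 11.1%, was the lowest of 4 plates (ratio 0.897), and its fibroblast-like share, 81.1%, the highest (ratio 0.903). The E15.0 log2 fold of Cd44 was also highest on plate 1, at 2.86 (ratio 0.856). This plate shares its code in the labels with plate 1 of E13.0.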

How the results depend on the processing

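The counts of called genes depended on the settings. With a pseudocount of 5 TPM, 500 genes were called higher in epithelial and 673 in fibroblast-like cells, with a filter at 10 TPM 434 and 572, with cells pooled over plates 1820 and 2450, and with a log2 fold of 2 on every plate 368 and 473. Fewer genes were tested under the stricter filter (9587). Leaving out 1 plate gave 1290 to 1334 and 1843 to 1964 calls. The other settings stayed within 1.5 times of 1072 and 1555, among them median-of-ratios scaling with 1263 and 1277 calls and rescaling to protein-coding genes with 1023 and 1095. A similar count did not mean the same genes. Plate medians kept only 647 of the 1072 and 860 of the 1555 genes, and means of log2 values kept 707 and 985. A stricter class rule left 72.3% of E13.0 cells fibroblast-like and 9.74% in neither class. Leaving out 1 plate gave 16.6 to 22% epithelial, 76.8 to 81.2% fibroblast-like and 1.13 to 2.21% in neither class. Of 330 values of the 30 named genes under alternatives, 210 lay within 1 SD of the reported fold, 120 moved further, and 0 changed sign. These genes were chosen for the largest folds, which fixes their sign. The smallest was 3.24 in size. The mitosis list had 7 to 18 genes called higher in fibroblast-like cells at the same fold and the stress list 7 to 10 in epithelial cells. Lists with a median near 0, such as integrins, Fgf, BMP, Wnt ligands, Tgf-beta and guidance genes, changed the sign of the median under some settings, and no direction is given for them. The folds were taken within plates, and no paired test was made because the plates are not biological replicates. The precision is limited by 14 to 23 epithelial cells a plate, and read depth is unknown.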

Other observations

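Sox2 was uneven among fibroblast-like cells, and several genes followed it from cell to cell. Of 12588 genes detected in at least 25% of fibroblast-like cells, the gene most like Sox2 in rank over cells was Hoxd3, a Hox gene that was chosen after its values were seen. Its mean Spearman rho over the 3 plates was 0.84, with a lowest plate of 0.82 (210 cells, which share libraries and a table). Genes were ranked by their lowest plate, and further mean values are of genes high in that ranking. Gfra1 followed with 0.80, and Inhba, the activin subunit, had 0.75. Gnai2 and Ptgfrn had 0.77 each. Both were at 10 TPM or more in all 210 cells, and Gnai2 was not called between the classes. Haglr, the long noncoding RNA beside the Hoxd genes, had 0.79, Adamts20 0.76 and Sox2ot, the noncoding RNA that overlaps Sox2, 0.76. Reads of Sox2 and Sox2ot cannot be told apart by strand here. Hoxd3 averaged 8.37 TPM in fibroblast-like cells and was listed at 0 in epithelial cells. Of the 75 cells with Sox2 at 10 TPM or more, 72 also had Gfra1 at 10 TPM or more, out of 113 with Gfra1. Top2a was at 10 TPM or more in 60% of the 75 cells and in 71.1% of the other 135.

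At E11.5, 1 plate without the red gate of the sort held 54 epithelial and 14 fibroblast-like cells by the same rule. Of the 30 genes named at E13.0, 27 were past the fold in the same direction there and 29 had the same sign. These genes were chosen for the largest E13.0 folds. No share over all tested genes is given for E11.5, so the count has no background. Lhx2 had a log2 fold of 0.36 at E11.5 and 6.95 at E13.0, averaging 0.499 against 0.172 TPM at E11.5. Gfra1 had 0.09 and -5.82, and Foxd1 -0.29 and -5.39. Krt17 had 2.23 at E11.5, Tbx18 -1.25, Ebf3 -1.66 and Ebf1 -1.82. With 1 plate and 14 cells in the smaller class, these values have no replicate.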
